A study of Mus musculus with 8 samples.

Results

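Interferon-induced genes are the genes that cells raise when an interferon binds its receptor, and 49 of them were followed here by their gene symbols among 53465 Ensembl genes counted in mouse hearts. All 49 were matched by Ensembl identifier, and 48 passed the filter on low counts. The remaining member, Ifitm1, had at most 4 reads in any library and was not tested. RNA was measured by bulk sequencing in 5 libraries labelled Lmna-/-:AAV9 Lmna WT (AAV9-LMNA below, replicates 1 to 5) and 3 labelled Lmna-/- with no vector named (untreated below, replicates 6 to 8). All 8 came from hearts of 2-week-old mice of mixed strain that lack Lmna, which encodes lamins A and C, and the treated mice were given adeno-associated virus of serotype 9 carrying wild-type Lmna. The vector's promoter and dose, the sex of the mice and whether hearts were pooled are not stated in the labels. The groups hold no wild-type heart and no heart given another AAV9 vector, so an effect of lamin A/C and an effect of the virus particle cannot be told apart.

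Type I interferons (the alpha and beta interferons) signal through IFNAR1 and IFNAR2 and the kinases JAK1 and TYK2 to a complex that includes STAT2 and IRF9 and binds the interferon-stimulated response element (ISRE). Interferon gamma, made mainly by T cells and NK cells, signals through IFNGR1 and IFNGR2 and the kinases JAK1 and JAK2, leads to binding at the gamma-activated site (GAS) and raises IRF1. The Ifit, Oas and Mx genes encode antiviral proteins that type I interferon raises strongly, and the Gbp and Irg genes encode GTPases that interferon gamma raises strongly, though many genes of each class answer to either interferon. In the heart these genes are a common readout of innate immune signalling, in muscle cells as well as in resident macrophages and vessels.

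Depth and the labels were checked first. Counts on features ran from 21439956 to 26492443 per library, and no pair of libraries of 1 group agreed within sampling noise. Lmna itself had 227 to 747 CPM (counts on a common scaled library size) in AAV9-LMNA libraries, against 32.3 to 68.7 CPM in untreated libraries. Its log2 fold change was 3.03 ± 0.46 (SE; adjusted p = 0.00486 in edgeR). The cardiomyocyte gene Myh6 stood at 21300 to 30360 CPM in AAV9-LMNA libraries and at 17050 to 33890 CPM in untreated libraries, so this defining gene of heart muscle was abundant throughout. Reads outside all annotated features made up 12.05 to 12.85% of reads in AAV9-LMNA libraries, against 24.7%, 16.8% and 18.4% in untreated libraries 6, 7 and 8. Fold changes below are AAV9-LMNA over untreated, fitted with edgeR on all 26717 features that passed the filter, and a gene is called where its adjusted p over those features was under 0.05. Since nothing in the labels ties a library to an animal of its own, p-values here reflect only how far these libraries spread, which may be partly technical.

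Where the response elements lie was read from the RefSeq promoter table (GRCm38.p6, 250 bases before to 50 after a transcript start), which held 37 of the 49 members. The ISRE core was searched as GAAANNGAAA and the GAS as TTCNNNGAA, on both strands. An ISRE core was found in 18 of the 37 promoters (48.6%), against 3.44% of all 32851 promoters in the table, and a GAS in 13 (35.1%), against 8.3% of all. Matches of both kinds overlapped each other in 24 promoters of the table, 2 of them of members. A match describes the letters and is not a site known to bind a factor. The promoters printed are those of the members with the smallest p that the table holds, up to 3 type I-biased, 3 gamma-biased and 2 transcription factor genes, and capitals mark matches to either motif.
Ifit2: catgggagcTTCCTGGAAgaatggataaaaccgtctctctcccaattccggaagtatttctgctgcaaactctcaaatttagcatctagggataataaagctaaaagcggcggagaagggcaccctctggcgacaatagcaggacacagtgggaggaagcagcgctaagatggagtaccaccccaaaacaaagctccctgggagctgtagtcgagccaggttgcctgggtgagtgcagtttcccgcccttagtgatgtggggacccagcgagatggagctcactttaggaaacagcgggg
Oasl1: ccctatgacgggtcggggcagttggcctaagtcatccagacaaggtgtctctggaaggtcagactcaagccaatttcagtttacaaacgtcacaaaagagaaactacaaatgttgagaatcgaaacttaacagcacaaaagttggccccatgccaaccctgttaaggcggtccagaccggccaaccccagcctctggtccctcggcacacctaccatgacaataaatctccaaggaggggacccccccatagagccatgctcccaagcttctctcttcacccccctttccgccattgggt
Ifit3: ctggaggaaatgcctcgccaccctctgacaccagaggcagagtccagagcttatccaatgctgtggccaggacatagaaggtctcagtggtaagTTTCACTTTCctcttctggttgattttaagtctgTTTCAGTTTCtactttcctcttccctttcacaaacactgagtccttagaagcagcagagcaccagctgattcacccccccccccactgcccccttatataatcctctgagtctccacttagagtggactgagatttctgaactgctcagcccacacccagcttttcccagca
Irgm1: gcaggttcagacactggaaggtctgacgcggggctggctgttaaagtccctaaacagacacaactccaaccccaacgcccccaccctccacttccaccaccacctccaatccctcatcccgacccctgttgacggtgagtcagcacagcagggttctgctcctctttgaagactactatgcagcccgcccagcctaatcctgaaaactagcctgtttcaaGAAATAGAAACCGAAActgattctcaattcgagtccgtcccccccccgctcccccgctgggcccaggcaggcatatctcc
Gbp7: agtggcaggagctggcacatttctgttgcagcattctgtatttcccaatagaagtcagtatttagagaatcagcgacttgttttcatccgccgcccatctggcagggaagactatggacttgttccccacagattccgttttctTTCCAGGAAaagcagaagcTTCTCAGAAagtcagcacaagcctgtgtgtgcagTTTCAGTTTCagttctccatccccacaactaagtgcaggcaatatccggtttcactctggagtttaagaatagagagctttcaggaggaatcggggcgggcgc
Igtp: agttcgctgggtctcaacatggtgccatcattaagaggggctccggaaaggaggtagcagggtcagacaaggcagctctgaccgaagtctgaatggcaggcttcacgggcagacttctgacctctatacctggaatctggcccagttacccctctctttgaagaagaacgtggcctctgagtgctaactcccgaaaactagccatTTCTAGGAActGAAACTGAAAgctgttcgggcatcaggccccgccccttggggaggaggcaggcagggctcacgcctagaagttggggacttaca
Irf9: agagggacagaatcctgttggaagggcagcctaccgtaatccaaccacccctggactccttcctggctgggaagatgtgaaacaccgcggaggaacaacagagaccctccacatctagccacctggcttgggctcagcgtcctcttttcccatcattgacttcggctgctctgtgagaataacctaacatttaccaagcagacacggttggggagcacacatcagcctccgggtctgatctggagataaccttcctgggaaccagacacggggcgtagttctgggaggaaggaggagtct
Irf1: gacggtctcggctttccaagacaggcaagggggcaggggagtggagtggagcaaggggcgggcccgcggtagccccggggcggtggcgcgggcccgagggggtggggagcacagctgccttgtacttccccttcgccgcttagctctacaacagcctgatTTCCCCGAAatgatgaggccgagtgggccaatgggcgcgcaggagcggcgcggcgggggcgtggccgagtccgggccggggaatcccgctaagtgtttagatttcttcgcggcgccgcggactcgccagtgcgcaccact

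The sequences run 5′ to 3′ along each gene's strand. Those of Ifit2 (chr19:34550444-34550743), Oasl1 (chr5:114922990-114923289), Ifit3 (chr19:34583279-34583578), Gbp7 (chr3:142530086-142530385), Igtp (chr11:58199306-58199605), Irf9 (chr14:55603735-55604034) and Irf1 (chr11:53769764-53770063) lie on the plus strand, and that of Irgm1 (chr11:48871371-48871670) on the minus strand. Ifit3 held a pair of ISRE cores, 156 and 122 bases before its start, and no GAS. Irgm1 held a pair of overlapping ISRE cores 30 and 24 bases before its start. Igtp held a GAS 45 bases and an ISRE core 34 bases before its start, and Gbp7 held 2 GAS and 1 ISRE core. Irf1, itself raised by interferon gamma, held a single GAS 90 bases before its start. Neither motif was in the Oasl1 and Irf9 windows, and Ifit2 held only a GAS. By class, the ISRE core was in 4 of 7 type I-biased and 8 of 9 gamma-biased promoters, and the GAS in 2 of 7 and 5 of 9. The letters of the ISRE were thus at least as common in the gamma-biased promoters as in the type I-biased ones. Of the gamma-biased genes, Gbp4, Gbp6, Gbp9 and Iigp1 had no promoter in the table. The transcript starts used for Irgm2, Gbp5, Tgtp1 and Irf9 lay 15359, 2956, 1926 and 414 bases from the gene's start in GENCODE M21. Those used for Ifitm1 and Irgm1 lay 855 and 263 bases away, and all others at most 169 bases. The windows of Irgm2, Gbp5 and Tgtp1 each held 1 ISRE core.

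Across the members, 18 of 48 were higher in AAV9-LMNA hearts, none was called lower and 30 were not called. The called share was 37.5%, against a background of 10.6% of all tested features and 18.4% of tested protein-coding genes called higher. The median log2 fold change of the members was 0.85, beside -0.03 over all tested features and 0.21 over protein-coding genes. It was above 0 for 47 members, and Trim25 alone lay below, at -0.02. The count of genes whose groups did not overlap at all was no higher than elsewhere: in 10 of 48 members every AAV9-LMNA library lay above every untreated library, against 23.1% of protein-coding genes.

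**Figure D1:**
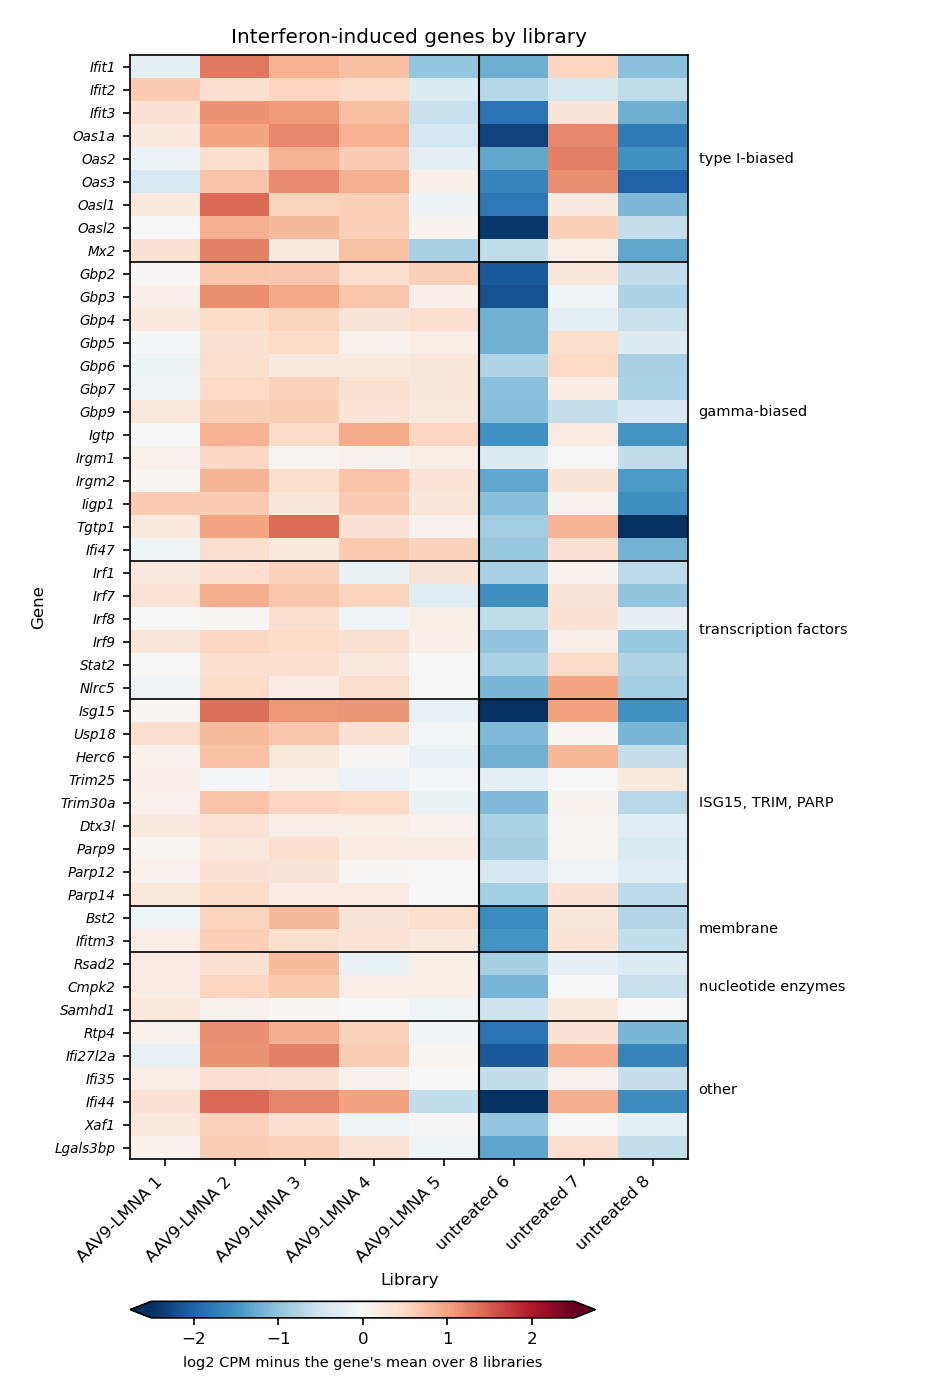
Each cell gives the log2 CPM of a gene (row) in a library (column) minus that gene's mean over 8 libraries, AAV9-LMNA libraries at left and untreated ones at right of the line, with genes ordered by role. Untreated libraries 6 and 8 are blue for most genes, while untreated library 7 is close to the AAV9-LMNA libraries.

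The untreated libraries did not behave alike. Untreated library 7 had the highest value of its group in 46 of the 48 members. It reached or passed the lowest AAV9-LMNA library in 38 members and passed the highest in 6. Untreated library 6 reached the lowest AAV9-LMNA library in 1 member and untreated library 8 in 2. The members summed to 881, 1131, 1085, 948 and 826 CPM in AAV9-LMNA libraries 1 to 5, against 395, 866 and 524 CPM in untreated libraries 6 to 8. Macrophage and monocyte markers took the same order among the untreated libraries: the 14 listed markers summed to 603 to 697 CPM in AAV9-LMNA libraries, against 179, 748 and 322 CPM in untreated libraries 6, 7 and 8. Their part in the members' values was not tested, and in bulk tissue fewer cells of a type and less RNA per cell cannot be told apart.

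The count of calls moved with single libraries, of either group. Without untreated library 7, 45 of 48 members were called higher (29.9% of protein-coding genes) and the median log2 fold change was 1.33. Without untreated library 6 the count was 4 (13.1% of protein-coding genes) and the median 0.58, and without untreated library 8 it was 4 (13.7%) and the median 0.67. Set against untreated library 7 alone, without libraries 6 and 8, 2 members were called (7.42% of protein-coding genes) and the median was 0.17, a fit in which library 7 is assumed to vary as the other group does. Those 2 were Gbp4 and Gbp9. Leaving out AAV9-LMNA library 1 left 13 members called (2087 of 13738 protein-coding genes). Leaving out library 2 left 3 (10.4% of protein-coding genes), library 3 left 5 (10%), library 4 left 8 (11.7%) and library 5 left 11 (12.1%). Scaling on Ensembl features alone lowered the fold change of all shared features by a median of 0.19 on the log2 scale, and 3 members were then called (4.49% of protein-coding genes). A correction for transcript length and GC content also left 3 (2.42% of protein-coding genes). DESeq2 called 27 members higher (24.9% of protein-coding genes) and limma-voom 25 (19.9%). In every one of the 16 alternatives Gbp4 and Gbp9 were called, and Ifit2 in 15, all but the fit against untreated library 7 alone. The other 15 called members were called in 5 to 10 of the 16.

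**Figure D2:**
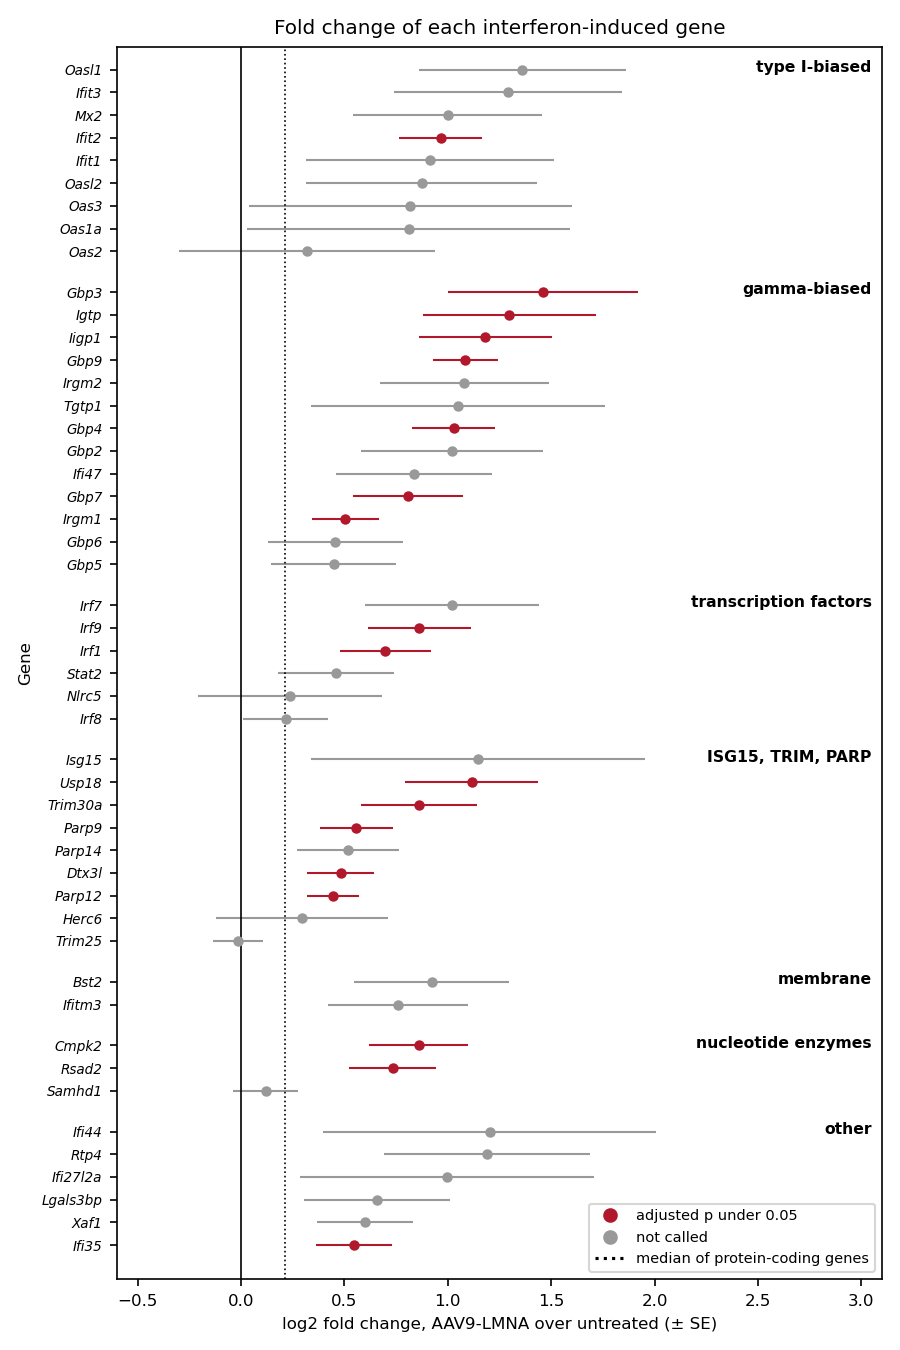
Points give each gene's log2 fold change, AAV9-LMNA over untreated, with bars of 1 SE from the edgeR fit, by role; red genes have an adjusted p under 0.05 and the dotted line is the median of protein-coding genes, 0.21. The type I-biased genes run from 0.32 to 1.36 and the gamma-biased ones from 0.45 to 1.46, and the type I-biased bars are mostly wider, Ifit2 apart.

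Of the 9 type I-biased genes, 1 was called higher, Ifit2 (11.1%, against 10.6% of all tested features and 18.4% of protein-coding genes). All 9 fold changes were above 0, with a median of 0.91. Ifit2, Ifit3 and Ifit1 lie in a cluster at chr19:34550694-34650009 and encode tetratricopeptide proteins, of which IFIT1 binds viral RNA caps. Ifit2 had 32.9, 28.5, 30.8, 29.5 and 16.7 CPM in AAV9-LMNA libraries 1 to 5, against 12.8, 16.1 and 13.7 CPM in untreated libraries 6 to 8. The groups did not overlap, but AAV9-LMNA library 5 lay close to untreated library 7. The log2 fold change was 0.96 ± 0.20 (SE, edgeR adjusted p = 0.00881). Its neighbour Ifit3 had 11.2, 19.1, 18.4, 14.8 and 5.93 CPM in AAV9-LMNA libraries, against 2.379, 10.96 and 3.677 CPM in untreated libraries. Ifit1 had 5.42, 16.3, 11.9, 10.9 and 3.26 CPM in AAV9-LMNA libraries, against 2.71, 9.42 and 3.09 CPM in untreated libraries. For both genes AAV9-LMNA library 5 fell below untreated library 7, and neither was called (log2 fold changes 1.29 ± 0.55 and 0.91 ± 0.60, edgeR adjusted p = 0.115 and 0.278).

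The Oas genes encode synthetases of 2′-5′-linked oligoadenylates, which activate RNase L, and lie on chromosome 5 with the Oas-like genes Oasl1 and Oasl2. Oas1a had 1.87, 3.18, 3.75, 2.96 and 1.13 CPM in AAV9-LMNA libraries, against 0.246, 3.75 and 0.409 CPM in untreated libraries. Oas2 had 2.57, 3.903, 5.312, 4.509 and 2.445 CPM in AAV9-LMNA libraries, against 1.11, 6.95 and 0.953 CPM in untreated libraries. In these genes untreated library 7 matched or passed the highest AAV9-LMNA library, and untreated libraries 6 and 8 were lower than every one. Oas2 had the smallest log2 fold change of the class, 0.32 ± 0.62 (SE, edgeR adjusted p = 0.721). Oas3 was sparse, with 7 to 24 reads in AAV9-LMNA libraries and 2, 26 and 1 reads in untreated libraries 6, 7 and 8. Oasl1, whose product in mice limits translation of Irf7 mRNA, had the highest log2 fold change of the class, 1.36 ± 0.50 (edgeR adjusted p = 0.067). It had 1.78, 4.13, 2.23, 2.28 and 1.36 CPM in AAV9-LMNA libraries, against 0.369, 1.75 and 0.636 CPM in untreated libraries. Oasl2 had 9.34 to 17.3 CPM in AAV9-LMNA libraries, against 1.68, 14.2 and 6.17 CPM in untreated libraries. Mx2, a dynamin-like GTPase gene listed as a polymorphic pseudogene in GENCODE M21, had 1.81 to 7.88 CPM in AAV9-LMNA libraries and 1.27 to 3.63 CPM in untreated libraries, with a log2 fold change of 1.00 ± 0.46 (edgeR adjusted p = 0.127).

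Of the 13 gamma-biased genes, 7 were called higher (53.8%, against 10.6% of all tested features and 18.4% of protein-coding genes). In 5 of the 13, all of them called, every AAV9-LMNA library lay above every untreated library, against 23.1% of protein-coding genes. All 13 fold changes were above 0, with a median of 1.03. The Gbp genes encode guanylate-binding proteins, large GTPases that coat intracellular pathogens and their vacuoles. Gbp2, Gbp3, Gbp5 and Gbp7 lie at chr3:142493978-142638008, and Gbp4, Gbp6 and Gbp9 at chr5:105077630-105293698. Gbp9 had 41.9, 52.3, 53.3, 44.0 and 41.2 CPM in AAV9-LMNA libraries, against 16.6, 23.1 and 26.2 CPM in untreated libraries. Gbp4 had 12.9, 15.1, 16.1, 13.7 and 14.6 CPM in AAV9-LMNA libraries, against 4.68, 9.30 and 7.35 CPM in untreated libraries. In these neighbours the AAV9-LMNA libraries were close together, and untreated library 7 stayed below all of them. Gbp9 rose by 1.08 ± 0.16 on the log2 scale (edgeR adjusted p = 0.00264) and Gbp4 by 1.03 ± 0.20 (adjusted p = 0.00668). Among GENCODE M21 genes, their exons overlap each other and Gbp8 over about 1% of their bases. Gbp3 had 32.5, 66.5, 58.0, 48.5 and 32.4 CPM in AAV9-LMNA libraries, against 6.52, 28.0 and 17.4 CPM in untreated libraries. Its log2 fold change, 1.46 ± 0.46, was the highest of all members, with an adjusted p of 0.0499 in the edgeR fit. Gbp7 rose by 0.81 ± 0.27, with untreated library 7 (14.4 CPM) inside the AAV9-LMNA range of 11.9 to 18.9 CPM (edgeR adjusted p = 0.0475). Gbp2 had 16.7 to 26.2 CPM in AAV9-LMNA libraries, against 3.73, 19.9 and 10.5 CPM in untreated libraries (log2 fold change 1.02, edgeR adjusted p = 0.12). Gbp5 and Gbp6 had the smallest fold changes of the class, 0.45 and 0.46 on the log2 scale, and in Gbp6 untreated library 7, at 3.07 CPM, exceeded every AAV9-LMNA library. The gene model Gm43302 shares 29% of the Gbp6 exon bases.

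The Irg genes encode immunity-related GTPases that act on vacuoles of intracellular parasites, and those on chromosome 11 lie within chr11:48861968-58222782. Iigp1, on another chromosome, had 54.0, 54.2, 43.2, 54.4 and 42.9 CPM in AAV9-LMNA libraries, against 16.7, 36.9 and 12.1 CPM in untreated libraries. It rose by 1.18 ± 0.32 on the log2 scale (edgeR adjusted p = 0.0294), with no overlap between the groups. Irgm1, which regulates other members of the family, had 15.4, 20.2, 14.9, 15.1 and 16.03 CPM in AAV9-LMNA libraries, against 11.2, 14.1 and 9.26 CPM in untreated libraries. Its groups did not overlap either, and at 0.51 ± 0.16 it had the smallest log2 fold change of the called genes of the class (edgeR adjusted p = 0.0431). Igtp had 8.316, 15.35, 11.57, 16.02 and 12.23 CPM in AAV9-LMNA libraries, against 2.87, 9.68 and 2.95 CPM in untreated libraries, and rose by 1.30 ± 0.42 (adjusted p = 0.0478). Irgm2, whose exons share 4.39% of their bases with Igtp, had a log2 fold change of 1.08 ± 0.41 and was not called (edgeR adjusted p = 0.0827). Tgtp1 was sparse, with 25 to 61 reads in AAV9-LMNA libraries and 13, 46 and 1 reads in untreated libraries 6, 7 and 8. Ifi47 had 1.54 to 2.66 CPM in AAV9-LMNA libraries, against 0.82, 2.18 and 0.681 CPM in untreated libraries, and was not called. Reads that align to more than 1 place were not counted, so Tgtp1, which has a near-identical copy, and the Gbp, Irg, Oas and Ifitm families may be undercounted by an unknown share.

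Set side by side library by library, the classes differed more in their spread than in their shift between groups. The mean log2 CPM of the 9 type I-biased genes was 2.04, 2.87, 2.74, 2.62 and 1.56 in AAV9-LMNA libraries 1 to 5, against 0.37, 2.48 and 0.68 in untreated libraries 6 to 8. That of the 13 gamma-biased genes was 3.36, 3.91, 3.80, 3.72 and 3.58 in AAV9-LMNA libraries, against 2.06, 3.44 and 2.21 in untreated libraries. In the gamma-biased mean untreated library 7 fell between AAV9-LMNA libraries 1 and 5, and in the type I-biased mean it exceeded both. The group means differed by 1.19 for type I-biased genes and by 1.10 for gamma-biased genes. The medians of the edgeR log2 fold changes, 0.91 and 1.03, stood in the other order. Type I-biased minus gamma-biased came to -1.31 ± 0.41 in AAV9-LMNA libraries (SD, n = 5) and to -1.39 ± 0.39 in untreated libraries (SD, n = 3), a difference of 0.08 that is smaller than either SD. Without AAV9-LMNA library 5 it was 0.26, without untreated library 7 it was 0.30, and against untreated library 7 alone it was -0.35. Counts of calls were 1 of 9 against 7 of 13 in the fit on all libraries, but 8 of 9 against 13 of 13 without untreated library 7. Over protein-coding genes, 18.4% and 29.9% were called higher in those fits. The difference between the classes in these counts was not tested. A mean over members was given no test either, and levels of the classes are per gene and not per length.

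**Figure D3:**
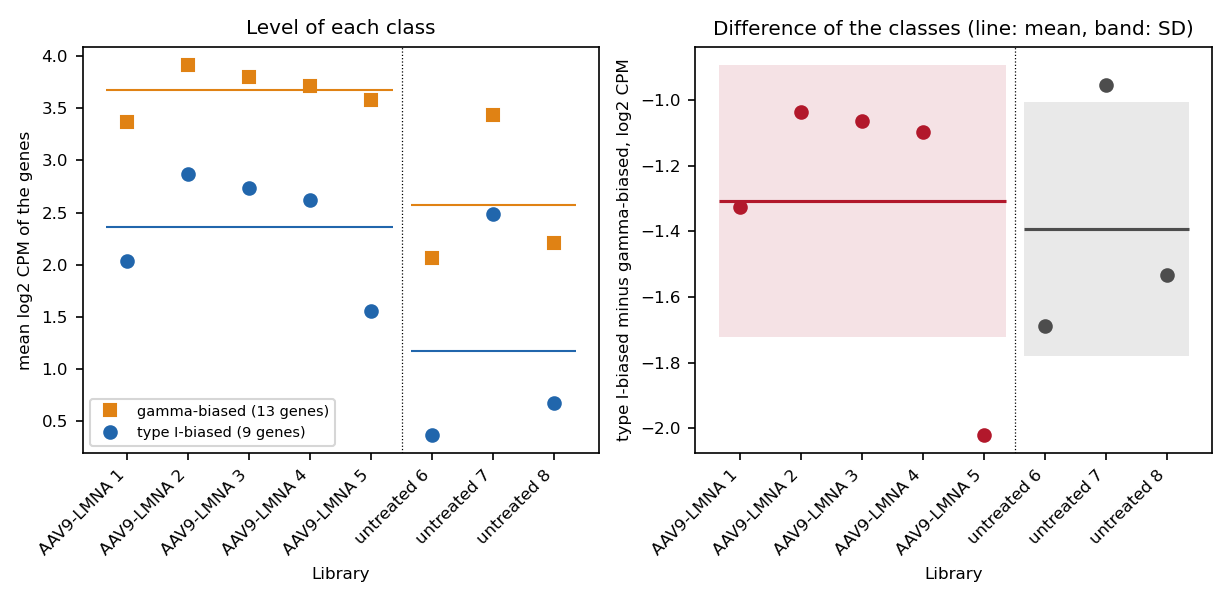
Left, the mean log2 CPM of the 9 type I-biased genes (circles) and of the 13 gamma-biased genes (squares) in each library, with lines at the group means; right, their difference per library, with the group mean as a line and 1 SD as a band. AAV9-LMNA library 5 has the lowest difference, -2.02, and untreated library 7 the highest, -0.96.

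Within the AAV9-LMNA group the SD of the type I-biased mean was 0.55 and that of the gamma-biased mean 0.21, and within the untreated group 1.14 and 0.76. Library 5 was the lowest AAV9-LMNA library in 7 of 9 type I-biased genes but in 4 of 13 gamma-biased genes, where library 1 was the lowest in 8. The median deviation of library 5 from its group mean was -0.69 on the log2 scale over type I-biased genes and -0.05 over gamma-biased genes. In library 1 the same medians were -0.33 and -0.37, so there the classes were low together. Library 2 was above its group mean in all 9 type I-biased and all 13 gamma-biased genes. In the untreated group, library 7 was likewise above its group mean in all genes of both classes, with median deviations of 1.24 and 0.92. The summed reads behind these values were 1491, 2667, 1979, 1989 and 951 for the type I-biased genes in AAV9-LMNA libraries, against 571, 1591 and 659 in untreated libraries.

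**Figure D4:**
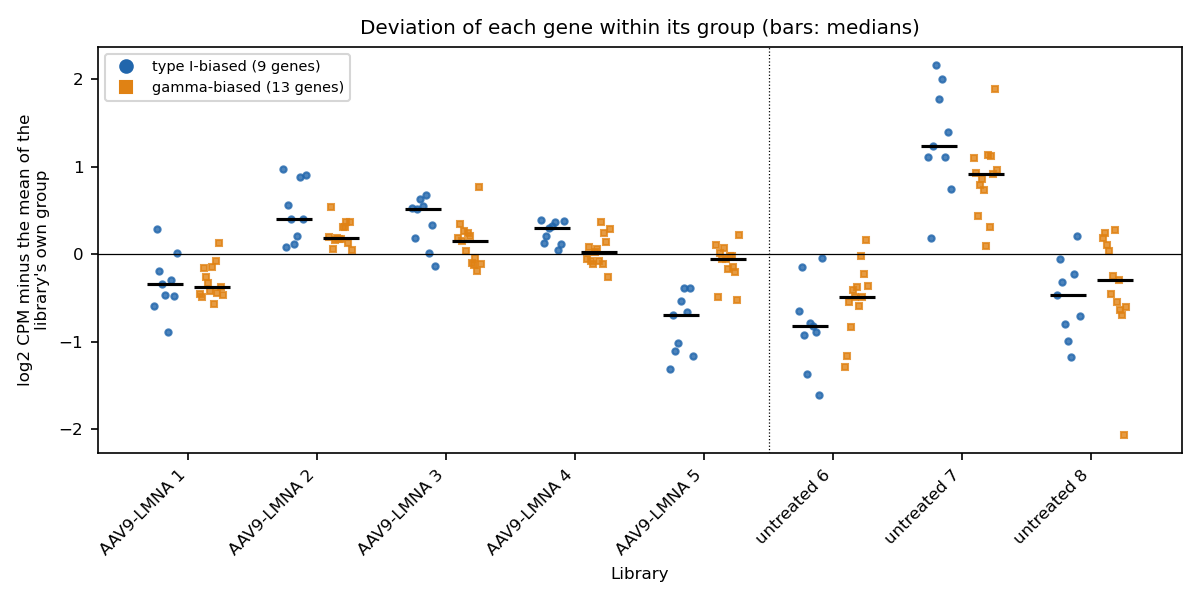
Each point is a gene's log2 CPM minus the mean of the library's own group, type I-biased genes as circles and gamma-biased genes as squares, with bars at the medians. In AAV9-LMNA library 5 the type I-biased median is -0.69 and the gamma-biased median -0.05, whereas in library 1 they are -0.33 and -0.37.

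The extremes of the Lmna level and of the type I-biased mean fell in the same AAV9-LMNA libraries, in opposite order. Library 5 had the highest Lmna level, 747 CPM, and the lowest type I-biased mean, and library 2 had the lowest, 227 CPM, and the highest means of both classes. Libraries 1, 3 and 4 lay between, at 393, 325 and 312 CPM, and of these library 3 exceeded library 4 in the Lmna level and in both class means. Among untreated libraries, library 7 had the highest Lmna level, 68.7 CPM, and the highest means. With 5 and 3 libraries these orders are a description.

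Of the 6 transcription factors and coactivators, Irf1 and Irf9 were called higher (33.3%, against 18.4% of protein-coding genes). The median log2 fold change was 0.58. Irf1, which drives many gamma-induced genes, had 38.9, 44.7, 49.9, 29.9 and 41.6 CPM in AAV9-LMNA libraries, against 19.0, 35.6 and 21.2 CPM in untreated libraries. It rose by 0.70 ± 0.22 on the log2 scale (edgeR adjusted p = 0.0413). Irf9, the DNA-binding subunit of the type I complex, had 34.5, 40.0, 38.6, 36.5 and 30.8 CPM in AAV9-LMNA libraries, against 14.03, 31.17 and 14.39 CPM in untreated libraries. It rose by 0.86 ± 0.25 (edgeR adjusted p = 0.032), although untreated library 7 was slightly above AAV9-LMNA library 5. Irf7, the factor that amplifies type I interferon production, had 13.55, 20.04, 17.22, 15.63 and 8.785 CPM in AAV9-LMNA libraries, against 3.61, 13.3 and 5.36 CPM in untreated libraries. Its profile shared the low value in library 5, and it was not called (log2 fold change 1.02 ± 0.42, edgeR adjusted p = 0.101). Stat2, a subunit of the type I complex, had 24.1 to 32.7 CPM in AAV9-LMNA libraries, against 13.99, 33.73 and 14.39 CPM in untreated libraries. Irf8, a myeloid factor, and Nlrc5, the coactivator of MHC class I genes, had log2 fold changes of 0.21 ± 0.20 and 0.23 ± 0.45, and neither was called (edgeR adjusted p = 0.443 and 0.711).

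Among the 9 genes of the ISG15, TRIM and PARP enzymes, 5 were called higher: Usp18, Trim30a, Dtx3l, Parp9 and Parp12. That is 55.6%, against 18.4% of protein-coding genes. Isg15, a ubiquitin-like protein that is conjugated to other proteins, had 1.26, 3.26, 2.66, 2.71 and 1.04 CPM in AAV9-LMNA libraries, against 0.082, 2.52 and 0.363 CPM in untreated libraries. These values came from 23 to 86 reads in AAV9-LMNA libraries and from 2, 59 and 8 reads in untreated libraries, and Isg15 was not called (log2 fold change 1.15 ± 0.81, edgeR adjusted p = 0.308). Usp18, which removes ISG15 and holds back the type I receptor, had 5.00, 6.56, 6.02, 4.81 and 3.62 CPM in AAV9-LMNA libraries, against 1.68, 3.88 and 1.63 CPM in untreated libraries. It rose by 1.12 ± 0.32 (edgeR adjusted p = 0.0283). Dtx3l and Parp9 encode partners in a ubiquitin ligase complex and lie head to head on chromosome 16, where their exons share 8.0 and 9.4% of their bases. Dtx3l had 39.0 to 45.7 CPM in AAV9-LMNA libraries and 20.9 to 38.0 CPM in untreated libraries (log2 fold change 0.48, edgeR adjusted p = 0.0488), and Parp9 rose by 0.56 (adjusted p = 0.0394). Parp12 rose by 0.44 ± 0.12 with no overlap between the groups, at 33.2 to 42.4 CPM in AAV9-LMNA libraries and 24.1 to 30.9 CPM in untreated libraries (edgeR adjusted p = 0.0263). Trim30a rose by 0.86 (edgeR adjusted p = 0.0461). Parp14 had 52.5 to 72.1 CPM in AAV9-LMNA libraries, against 28.9, 66.9 and 33.3 CPM in untreated libraries, and was not called. Herc6, the mouse ligase that attaches ISG15, and Trim25, a ligase for the RNA sensor RIG-I, had log2 fold changes of 0.29 and -0.02. Trim25 had 42.9 to 51.4 CPM in AAV9-LMNA libraries and 40.0 to 56.4 CPM in untreated libraries, and there untreated library 8 was the highest of its group.

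Rsad2 (viperin) and its neighbour Cmpk2, at chr12:26442746-26479837, encode enzymes that make and supply antiviral nucleotides, and both were called higher. With Samhd1 they form a list of 3 genes, of which 66.7% were thus called, against 18.4% of protein-coding genes. Both calls were kept in 10 of the 16 alternatives and lost with Ensembl features alone and with the length and GC correction. Rsad2 had 37.8, 42.3, 56.4, 29.1 and 36.2 CPM in AAV9-LMNA libraries, against 18.3, 28.4 and 26.1 CPM in untreated libraries. Cmpk2 had 14.7, 18.9, 20.5, 14.4 and 14.5 CPM in AAV9-LMNA libraries, against 5.74, 12.9 and 8.81 CPM in untreated libraries. In both genes every AAV9-LMNA library was above every untreated library, as in 23.1% of protein-coding genes. In Rsad2 AAV9-LMNA library 4 was the lowest of its group, and in Cmpk2 libraries 1, 4 and 5 were nearly level, at 14.4 to 14.7 CPM. Rsad2 rose by 0.73 ± 0.21 (edgeR adjusted p = 0.0294) and Cmpk2 by 0.86 ± 0.24 (adjusted p = 0.0253). Samhd1, which degrades deoxynucleotides, had a log2 fold change of 0.12 ± 0.16 and was not called (edgeR adjusted p = 0.583).

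Neither tested membrane restriction factor was called, beside 18.4% of protein-coding genes called higher. Ifitm3, which blocks fusion of viruses with endosomes, had 40.0, 53.9, 47.6, 45.7 and 43.0 CPM in AAV9-LMNA libraries, against 12.8, 45.4 and 23.4 CPM in untreated libraries (log2 fold change 0.76 ± 0.34, edgeR adjusted p = 0.126). Bst2 (tetherin), which holds budding virus at the cell surface, had 9.06 to 17.2 CPM in AAV9-LMNA libraries, against 3.16, 11.9 and 5.86 CPM in untreated libraries (log2 fold change 0.92 ± 0.37, adjusted p = 0.0945 in edgeR). Of the 6 other members 1 was called higher, Ifi35 (16.7%, against 18.4% of protein-coding genes). Its log2 fold change was 0.55 ± 0.19 (edgeR adjusted p = 0.0496), and an antisense gene shares 16.8% of its exon bases. Ifi44 had 5.28, 11.1, 9.58, 8.29 and 2.63 CPM in AAV9-LMNA libraries, against 0.533, 7.76 and 1.32 CPM in untreated libraries, the same order of libraries within the AAV9-LMNA group as in Ifit1. Its log2 fold change was 1.20 ± 0.81 and it was not called (edgeR adjusted p = 0.29). Rtp4, a chaperone of membrane receptors, Ifi27l2a, Xaf1 and the secreted lectin-binding glycoprotein gene Lgals3bp had log2 fold changes of 1.19, 1.00, 0.60 and 0.66, none called.

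Compared per kilobase of exon, the highest mean level among members was that of Ifitm3, with 67.9 CPM per kb in AAV9-LMNA hearts and 40.1 CPM per kb in untreated hearts. Ifi27l2a followed, with 21.7 CPM per kb in AAV9-LMNA hearts and 10.9 CPM per kb in untreated hearts, then Lgals3bp, with 15.6 CPM per kb in AAV9-LMNA hearts and 9.90 CPM per kb in untreated hearts. Oas3 was the lowest of the tested members, at 0.104 CPM per kb in AAV9-LMNA hearts and 0.0583 CPM per kb in untreated hearts. The type I-biased genes reached 7.96 CPM per kb in AAV9-LMNA hearts and 3.61 CPM per kb in untreated hearts, in Ifit3 and Ifit2. The gamma-biased genes reached 14.6 CPM per kb in AAV9-LMNA hearts and 5.30 CPM per kb in untreated hearts, both in Gbp3.

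The interferons themselves were at the limit of detection. Ifng and Ifnb1 had 0 reads in all 8 libraries, which allows a level of up to 0.0263 CPM over the AAV9-LMNA group and 0.0429 CPM over the untreated group, counting error alone. Of 20 interferon genes 14 had no read, and the 20 together had 15 reads. Reads that align to more than 1 place were not counted, so the interferon alpha gene family may be undercounted by an unknown share. The gene model Gm49751 shares 25.9% of the Ifng exon bases, and reads on shared bases may be lost to Ifng. Of the 6 receptor chains 1 was called higher, Ifnar2, by 0.38 on the log2 scale (edgeR adjusted p = 0.0281). Ifnar1, Ifngr1, Ifngr2, Il10rb and Ifnlr1 had log2 fold changes of 0.18, 0.29, 0.67, 0.34 and -0.30 and were not called, and Ifngr2 was the most abundant of them, at 216 to 296 CPM in AAV9-LMNA libraries and 84.2 to 211 CPM in untreated libraries. Of 5 signalling genes Tyk2 was called higher (0.43, adjusted p = 0.0323 in edgeR). Of 16 genes of nucleic acid sensing, Irf3 (0.50) and the adaptor Myd88 (0.52) were called higher, and the adaptor Ticam1 (-0.55) lower. Scaled on Ensembl features alone, the calls of Ifnar2, Tyk2, Irf3 and Myd88 were lost and that of Ticam1 was not. In the fit on all libraries 16.7% of the receptor, 20% of the signalling and 12.5% of the sensing genes were called higher. The share over protein-coding genes was 18.4%. Without untreated library 7, 3 of the 6 receptor chains, 3 of the 5 signalling genes and 7 of the 16 sensing genes were called higher. In that fit 29.9% of protein-coding genes were called higher.

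Of 9 genes listed as limiting interferon signalling none was called higher and 2 were called lower, against 6.07% of protein-coding genes called lower. Their median log2 fold change was 0.15. Without untreated library 7 the same list had 4 called higher and 2 lower, with a median of 0.68. In that fit 29.9% of protein-coding genes were called higher. The list leaves out Usp18, which is counted among the members, and holds Isg20, an exonuclease gene. Irf2, a factor that binds the same elements as IRF1 and opposes it, had 19.4, 18.2, 16.4, 16.2 and 17.2 CPM in AAV9-LMNA libraries, against 44.5, 31.4 and 26.6 CPM in untreated libraries. It fell by 0.97 ± 0.15 on the log2 scale (edgeR adjusted p = 0.00348) and was called lower in all 16 alternatives, also against untreated library 7 alone. Cish, a cytokine-induced inhibitor of STAT signalling, fell by 0.56 (edgeR adjusted p = 0.0155), a call lost, of the 16 alternatives, only against untreated library 7 alone. Irf1, by contrast, was called higher, here and in 7 of the 16 alternatives.

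Other gamma-induced genes, the chemokines and the antigen presentation genes, had 7 of 15 tested genes called higher and none lower. That is 46.7%, against 18.4% of protein-coding genes, and their median log2 fold change was 0.85. The count was 14 of 15 without untreated library 7 (median 1.48), beside 29.9% of protein-coding genes. It was 2 of 15 with the length and GC correction (median 0.72), beside 2.42%. Against untreated library 7 alone the median was 0.36. H2-Eb1, a chain of MHC class II, had 3.69, 4.32, 7.87, 5.45 and 1.18 CPM in AAV9-LMNA libraries, against 0.574, 0.725 and 0.863 CPM in untreated libraries, and rose by 2.64 ± 0.54 (edgeR adjusted p = 0.00875). The MHC class II genes H2-Aa and H2-Ab1 had log2 fold changes of 1.40 and 1.42 and were not called. In untreated library 7 they had 6.87 and 7.12 CPM. Those values lay inside their AAV9-LMNA ranges of 6.26 to 16.1 and 6.21 to 16.9 CPM. In AAV9-LMNA library 5, the lowest of its group for H2-Eb1, they had 9.46 and 7.97 CPM. H2-Eb1 thus departed from them in these libraries, and the cause was not tested. Cxcl9, a chemokine for T cells, rose by 1.85 ± 0.48 (edgeR adjusted p = 0.0206), with 2.38 to 5.68 CPM in AAV9-LMNA libraries and 0.246, 1.62 and 1.45 CPM in untreated libraries. The immunoproteasome genes Psmb8 and Psmb9 rose by 1.30 and 1.06 (edgeR adjusted p = 0.00809 and 0.0391). An antisense gene shares 14.7% of the Psmb8 exon bases. The calls of all but Psmb9 were kept with Ensembl features alone, and none of the 4 was called against untreated library 7 alone. Psmb10, the third immunoproteasome subunit gene, had 56.4, 61.1, 62.5, 59.8 and 59.2 CPM in AAV9-LMNA libraries, against 25.8, 38.8 and 42.9 CPM in untreated libraries. It rose by 0.74 ± 0.15 (edgeR adjusted p = 0.00689), and by 0.64 against untreated library 7 alone. Its call was lost, of the 16 alternatives, only with the length and GC correction (0.34, adjusted p = 0.0925 in edgeR). Tapbp and Tap2, the remaining called genes of the list, rose by 0.765 and 0.578 (edgeR adjusted p = 0.0165 and 0.00939). Against untreated library 7 alone their log2 fold changes were 0.348 and 0.362. Their calls were kept in 13 and 14 of the 16 alternatives. In all 7 called genes of the list, as in Gbp4 and Gbp9, every untreated library lay below every AAV9-LMNA library. Over the whole list this held for 8 of the 15 tested genes, against 23.1% of protein-coding genes.

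Cell type markers were set beside the members. For their counts, the share of protein-coding genes called higher was 18.4% on all libraries and 29.9% without untreated library 7. Untreated library 7 was the highest of all 8 libraries in the sum of the macrophage and monocyte markers. None of 13 tested markers was called, and their median log2 fold change was 0.73. Without untreated library 7, 12 of the 13 were called higher, with a median of 1.59, and against untreated library 7 alone 1 was called lower and the median was -0.11, so these counts moved with library 7 as the members' did. The nearest to the threshold were Ccr2 (1.56, edgeR adjusted p = 0.0502) and Cd68 (0.94, adjusted p = 0.0554). T and NK cell markers summed to 5.65, 4.89, 5.60, 4.17 and 12.7 CPM in AAV9-LMNA libraries 1 to 5. In untreated libraries 6 to 8 they summed to 1.81, 5.80 and 3.72 CPM. Of the 13 listed, 8 were too sparse to test. Lck and Cd2 were called higher among 5 tested. Lck had 14, 14, 16, 14 and 49 reads in AAV9-LMNA libraries and 0, 4 and 5 reads in untreated libraries. Of the 5 tested, 4 fold changes were above 0 and that of Prf1 (-0.08) was below. Untested, Cd3d and Cd3g had mean levels of 0.254 and 0.397 CPM in AAV9-LMNA hearts, against 0.0862 and 0.174 CPM in untreated hearts. Cd3e went the other way, at 0.247 CPM in AAV9-LMNA hearts and 0.572 CPM in untreated hearts. The Cd2 call was kept in 3 of the 12 alternatives that tested it and the Lck call in 10 of 15, and both were lost with limma-voom, with Ensembl features alone and with the length and GC correction. No neutrophil marker was called, and Ly6g had 0 reads in all libraries. Of 4 tested dendritic cell markers, which include the member Bst2, none was called, and without untreated library 7, 2 were called higher. Endothelial markers had 1 of 6 called (Tie1, 0.68) and fibroblast markers 0 of 5, and untreated library 6 was the lowest of all 8 libraries in the sums of both lists. Cardiomyocyte markers summed to 96130 to 117400 CPM in AAV9-LMNA libraries and 112100 to 160100 CPM in untreated libraries, with Myl2 (0.37) and Mybpc3 (0.35) called higher and Ttn (-0.77) lower; the signs for Myl2 and Ttn turned with the length and GC correction. The calls of Tie1 (0.48), Myl2 (0.17) and Mybpc3 (0.15) were lost with Ensembl features alone, and over the 16 alternatives Tie1 kept its call in 15, Mybpc3 in 9 and Myl2 in 5. The part of these cells in the members' values was not tested.

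**Figure D5:**
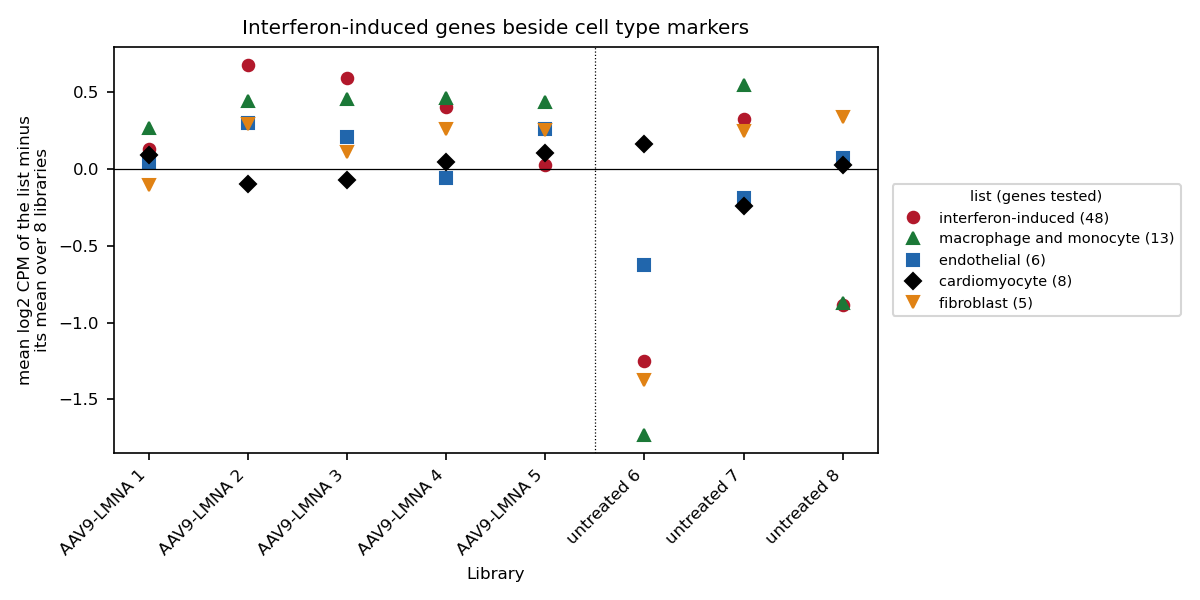
Each point is the mean log2 CPM of a list minus that list's mean over 8 libraries, for the interferon-induced genes and 4 marker lists. Macrophage and monocyte markers and interferon-induced genes are low in untreated libraries 6 and 8 and not in untreated library 7; AAV9-LMNA library 5 is low for interferon-induced genes among the AAV9-LMNA libraries while its macrophage markers are not.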

How the data were processed

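The authors deposited raw counts of reads per gene, 1 table per library, over 53465 Ensembl and 87774 NONCODE genes, counted without strand per the deposited tables. The submitters' processing notes name TopHat2, HTSeq, limma and edgeR and the builds GRCm38 and mm10, without versions or roles. Each table's 5 summary lines entered neither scaling nor testing. Of reads on, between or shared by features, those outside all features made up 12.05 to 24.69% and ambiguous ones 21.03 to 26.37%. Symbols and coordinates came from GENCODE M21, matched for 53360 Ensembl genes. Shared exon bases were measured among GENCODE M21 genes alone, and overlap with NONCODE genes was not measured.

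Differences were tested with edgeR 4.0.16 in R 4.3.3. Low counts were filtered with filterByExpr, TMM factors came from both kinds of feature, and robust quasi-likelihood models compared the groups. P-values were adjusted by Benjamini and Hochberg's method over all 26717 features, at 0.05. CPM were computed on TMM library sizes, and log2 CPM with a prior count of 2. The alternatives used DESeq2 1.42.0, limma-voom (limma 3.58.1), RLE factors, no filter, at least 1 CPM in 3 libraries, Ensembl features alone, a loess correction for length and GC content, each library left out, and untreated libraries 6 and 8 left out together. The members, the other lists and the rule for naming genes (all members; up to 4 called genes of each other list by size of fold change, or up to 2 with the smallest p; all receptor chains, Ifng, Ifnb1 and Lmna) were chosen with earlier results of these data known. H2-Aa, H2-Ab1, Psmb10, Tap2, Tapbp, Isg20, Myh6, Ly6g, Prf1, Cd3d, Cd3e and Cd3g were named besides after their values were seen. The result of a cell type marker list is not reported here.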

Additional observations from a re-analysis of the deposited data

Results flagged for a closer look

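In groups of 5 libraries, a value was picked out where its gap to the nearest library made up more of the group's range than Dixon's 95% limit allows; 52 groups of AAV9-LMNA values were examined, and chance alone picks out about 1 in 20. The Ifit2 level of AAV9-LMNA library 5, 16.7 CPM, was the lowest of its group, and the next was 28.5 CPM. The Irgm1 level of AAV9-LMNA library 2, 20.2 CPM, was the highest of its group, and the next was 16.03 CPM.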

How the results depend on the processing

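No paired analysis was possible because the AAV9-LMNA libraries carry the numbers 1 to 5 and the untreated ones 6 to 8. Leaving out each library in turn gave 3 to 45 members called higher, 1 to 8 of them type I-biased and 2 to 13 gamma-biased. Over protein-coding genes, 10 to 29.9% were called higher in those fits. Without untreated libraries 6 and 8 the counts were 2, 0 and 2, the members' median log2 fold change 0.165 and the class difference -0.353. Ensembl features alone, and the length and GC correction, each gave 3 members and 2 gamma-biased ones, beside 4.49% and 2.42% of protein-coding genes. DESeq2 and no filter each called 3 of the 9 type I-biased genes, limma-voom 2. Over protein-coding genes, DESeq2 called 24.9% higher, limma-voom 19.9%, and the fit with no filter 3232 of 18043. The class difference was not run with the length and GC correction, DESeq2 or limma-voom. With 1 library left out, the log2 fold change changed sign for Trim25 (-0.118 to 0.127, turning without AAV9-LMNA library 4 or untreated library 8), Oas2 (-0.094 to 1.871) and Nlrc5 (-0.121 to 1.292), both without untreated library 6 or 8, and Herc6 (-0.060 to 1.152) and Samhd1 (-0.054 to 0.310) without untreated library 6. It also turned for Trim25 with RLE factors (0.009), DESeq2 (0.009) and no filter (0.026), and for Samhd1 with Ensembl features alone and the length and GC correction (-0.062 each). Without untreated libraries 6 and 8 it turned for 18 members: Trim25 (0.018), Samhd1 (-0.166), Oas2 (-0.877), Nlrc5 (-0.768), Herc6 (-0.601), Oas1a (-0.525), Oas3 (-0.580), Oasl2 (-0.061), Gbp5 (-0.193), Gbp6 (-0.278), Tgtp1 (-0.139), Irf8 (-0.234), Stat2 (-0.231), Isg15 (-0.182), Parp14 (-0.106), Ifi27l2a (-0.218), Ifi44 (-0.058) and Lgals3bp (-0.068). None of these was called in the main comparison, and the cause was not tested. Low counts limit Oas3, Tgtp1 and Isg15, with 1 or 2 reads in an untreated library.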
